A study of Homo sapiens with 2 samples.

Results

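The cells carrying hashtags 0254 and 0255 were compared with those carrying hashtags 0252 and 0253, gene by gene, in one droplet library of human blood cells made from induced pluripotent stem cells. A hashtag is an antibody that binds every cell and carries a short barcode, so that pools of cells can be mixed, sequenced together and separated afterwards. Cells were members if the deposited calls gave them 1 of the 4 hashtags and if they held at most 36000 unique molecular identifiers (UMIs, which count RNA molecules), at most 6000 genes and at most 18% mitochondrial UMIs. This left 7550 cells of the 10836 barcodes in the series, with 2136, 1996, 1847 and 1571 cells for hashtags 0252, 0253, 0254 and 0255. The first pair held 4132 cells and the second 3418. Another set held the 1793 members with at least 2 UMIs of CD34 and at least 2 of GATA2, a surface protein and a transcription factor of blood stem and progenitor cells, with 537, 472, 492 and 292 cells.

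All cells came from the line IPS11, were selected for CD34 after an aggregate culture, and were then kept for 5 days in a medium that drives the endothelial-to-hematopoietic transition (EHT), in which cells of the vessel wall turn into blood cells. The plates were uncoated or coated with VCAM1, DLL4 or DLL4+VCAM1, and every pool received the same cytokines, among them SCF, thrombopoietin, interleukin-3, interleukin-6 and Flt3 ligand. Only cells that had come off the plate were collected, and the wells of a coating (3 each) were joined into a pool before staining, so each hashtag was 1 pool from 1 line. The sources used here did not say which hashtag marked which coating, and no coating is named below. The pairs 0252 and 0253, and 0254 and 0255, therefore differed within themselves as well, and were not replicates of a condition. No test was possible, and the errors given are exact 95% intervals that cover counting error only.

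VCAM1 is an adhesion protein that holds blood progenitors through integrins. DLL4 is a ligand of the Notch receptors: binding frees the inner part of the receptor, which joins the DNA-binding protein RBPJ in the nucleus and switches on genes such as those of the HES family. Notch signals are needed for the first blood stem cells to emerge from the embryonic aorta and, later, for progenitors to enter the T cell lineage. Other blood lineages include granulocytes, macrophages and platelet-forming megakaryocytes.

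Levels are given as UMIs per 1000000 UMIs of a hashtag's cells (CPM), always in the order 0252, 0253, 0254 and 0255. A gene was counted as higher if its lower level in 0254 and 0255 was over 1.5 times its higher level in 0252 and 0253, and as lower in the mirrored case, provided its mean over the hashtags was at least 5 CPM. Total UMIs were 28522216 to 40416478 per hashtag. Median UMIs per cell were 18557, 18769.5, 18099 and 17621, median genes per cell 4234.5, 4238, 4160 and 4124, and median mitochondrial shares 13.01%, 12.92%, 13.38% and 13.04%. Both of the second pair were thus slightly under both of the first in UMIs and genes and slightly over them in the mitochondrial share, and the part of this in the results was not tested beyond the thinned values given below. In the median cell, UMIs of its own hashtag exceeded those of the next hashtag by a factor of only 1.89, 2.29, 2.75 and 3.06, so some cells may carry the wrong call. The tissue is labelled Hematopoietic. SPN, a surface gene of white blood cells, was at 252, 273, 254 and 249 CPM, and CDH5, a gene of the vessel wall, at 0.940 to 1.74 CPM.

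The promoters of 4 genes are shown first, because the letters that RBPJ binds can be read in them beside the measured levels. HES4, CD3D and PPBP were counted in all cells, and HES1 was not. HES4 and HES1 are targets of Notch. CD3D encodes a part of the T cell receptor complex, and PPBP encodes a platelet chemokine. Each line runs 5′ to 3′ on the gene's own strand and ends 1 base before the start site, except that of HES4, which ends 71 bases before it and whose last 5 bases lie inside the annotated gene. Capitals mark TGGGAA, the core bound by RBPJ, AGATAA, bound by GATA factors, and TGTGGT, bound by RUNX factors, or their reverse complements.
HES4: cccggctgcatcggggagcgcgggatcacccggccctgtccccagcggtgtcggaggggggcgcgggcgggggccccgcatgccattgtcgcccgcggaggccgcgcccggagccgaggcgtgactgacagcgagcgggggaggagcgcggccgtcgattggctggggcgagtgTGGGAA
HES1: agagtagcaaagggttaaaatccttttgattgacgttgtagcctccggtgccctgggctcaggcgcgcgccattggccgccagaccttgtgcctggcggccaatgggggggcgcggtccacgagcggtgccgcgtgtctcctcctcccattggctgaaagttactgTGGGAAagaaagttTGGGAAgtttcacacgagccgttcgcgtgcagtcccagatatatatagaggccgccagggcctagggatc
CD3D: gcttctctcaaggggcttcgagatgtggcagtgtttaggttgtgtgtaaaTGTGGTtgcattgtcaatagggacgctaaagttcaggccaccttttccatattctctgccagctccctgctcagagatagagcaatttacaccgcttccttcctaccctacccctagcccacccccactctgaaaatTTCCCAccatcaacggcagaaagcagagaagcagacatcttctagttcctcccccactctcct
PPBP: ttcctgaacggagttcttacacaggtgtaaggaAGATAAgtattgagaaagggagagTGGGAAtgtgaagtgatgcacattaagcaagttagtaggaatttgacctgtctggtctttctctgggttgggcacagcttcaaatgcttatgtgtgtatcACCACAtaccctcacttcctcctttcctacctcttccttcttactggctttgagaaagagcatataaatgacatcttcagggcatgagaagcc

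The sequences are from GRCh37, which is hg19, with canonical start sites of GENCODE. HES4 is chr1:935548-935727 on the minus strand, 250 to 71 bases before the start site, and HES1 is chr3:193853687-193853936 on the plus strand. CD3D is chr11:118213421-118213670 on the minus strand, and PPBP is chr4:74853908-74854157 on the minus strand. The RBPJ letters begin 76 bases before the start site of HES4, and 84 and 70 bases before that of HES1. In CD3D they lie on the other strand 63 bases before the start site, after RUNX letters at 200. PPBP held GATA letters at 217, RBPJ letters at 193 and RUNX letters on the other strand at 93. No motif contains another, and neighbouring matches can share at most an end base.

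Such matches were frequent. Within 250 bases before to 50 after the start site, on either strand, 20.3% of the 9584 promoters of genes over the minimum level held the RBPJ letters, against 23.3% of the promoters of genes counted higher (14 of 60) and 24.4% of those counted lower (29 of 119). The RUNX letters stood in 8.61% of all, 13.3% of the higher and 16.8% of the lower genes, and the GATA letters in 4.43%, 10% and 12.6%. A match in these windows describes the letters only, and in this comparison the RBPJ letters did not separate the higher from the lower genes.

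Of 9727 genes over the minimum, 61 (0.627%) were counted higher and 119 (1.22%) lower with hashtags 0254 and 0255. For every one of them the counting intervals of the 2 pairs were apart. At 2-fold, 22 were higher and 50 lower. With no fold asked for, both of the second pair stood above both of the first for 26.4% of genes and below for 30.8%. Within a pair, 0253 differed from 0252 by over 1.5-fold, either way, for 0.997% of genes, and 0255 from 0254 for 0.925%. This asks for 1 ratio only and is a looser rule than that for a counted gene. At the edge of the rule, MIR181A1HG was the last gene inside (nearest levels 1.511 times apart) and ARHGAP22 the first outside (1.499) on the higher side, and FOXN2 (1.502) and NFAM1 (1.496) on the lower. The median ratio of all genes was -0.01 on the log2 scale, so the pairs were centred alike.

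**Figure D1:**
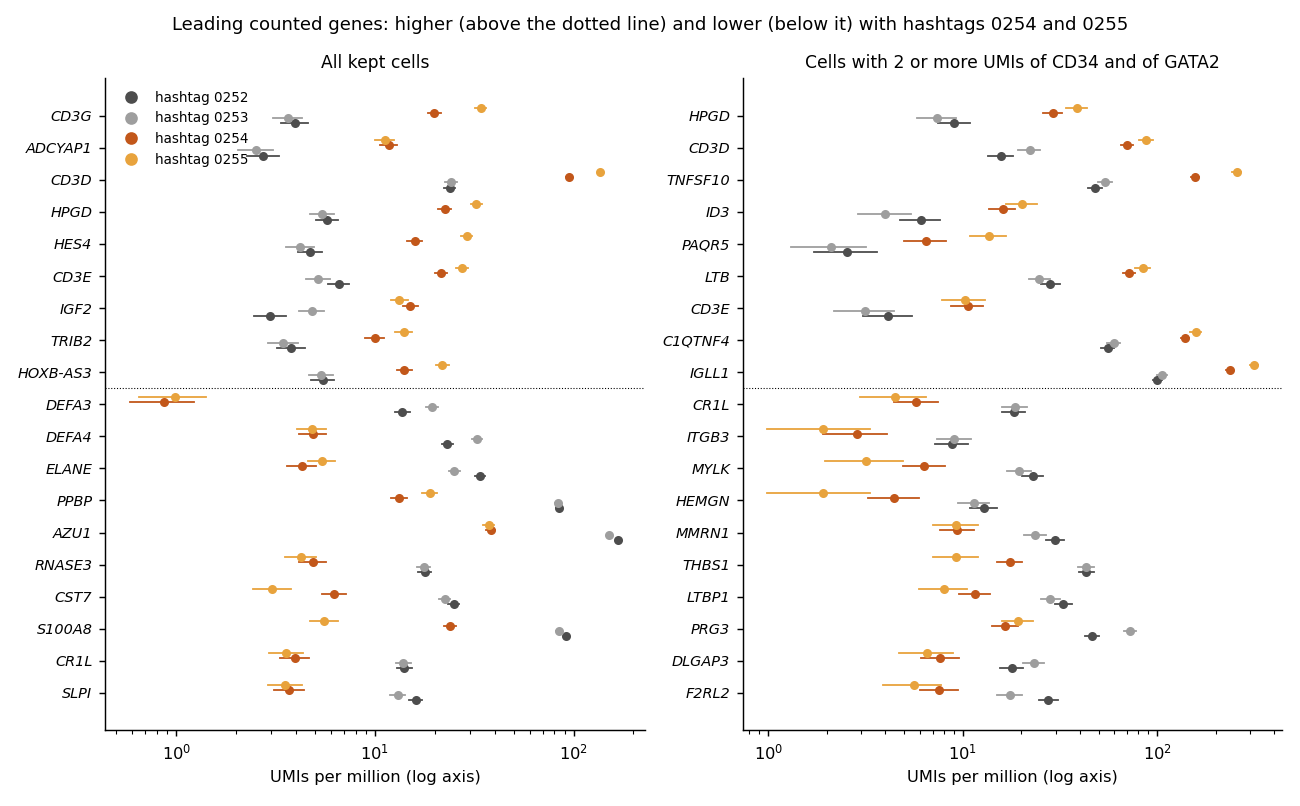
Levels of genes among the 10 in each direction whose nearest hashtags were furthest apart, in all kept cells (left) and in the cells with CD34 and GATA2 (right); points are CPM on a log axis, lines are exact 95% counting intervals, and colours are hashtags. In each row both points of the second pair lie on the same side of both points of the first; in all cells the nearest points are 2.58-fold apart for HOXB-AS3 and 14.0-fold for DEFA3.

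Among the genes furthest apart on the higher side were the 3 CD3 chains. CD3G, CD3D and CD3E encode the chains that pair with the T cell receptor and carry its signal, and they neighbour each other on chromosome 11 of hg19 (CD3E 118175445 to 118186890, CD3D 118209790 to 118213420, CD3G 118215059 to 118225876). CD3D stood at 23.9, 24.2, 95.1 and 136 CPM (4.74-fold between the pairs). CD3G stood at 3.96, 3.64, 19.9 and 34.1 CPM (6.87-fold), and CD3E at 6.58, 5.20, 21.5 and 27.5 CPM (4.15-fold). The first pair was level in all 3 genes, and 0255 was above 0254.

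Counted by cell, at least 2 of the 3 CD3 genes had a UMI in 6.04%, 4.81%, 20.8% and 24.6% of cells, with exact intervals of 3.91% to 7.13% over the first pair and 19.0% to 26.8% over the second. After every cell was thinned to 5000 UMIs the shares were 1.09%, 0.959%, 7.73% and 12.3%, and thinning left out 9 to 23 shallower cells per hashtag. All 3 CD3 genes were seen in 0.843%, 0.802%, 6.55% and 10.8%. The 2 pairs did not overlap in any of these shares. No profile of free RNA was measured, and its part in these shares was not tested. In the 115, 123, 71 and 40 cells with at least 10 UMIs of globin genes of the red cell line, CD3D was at 0.411, 4.05, 6.38 and 17.0 CPM. These levels, from few cells, were lower than in all cells. Both of the second pair stood above both of the first, but the nearest levels, 4.05 and 6.38 CPM, were close.

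Most cells with CD3 UMIs held myeloid transcripts as well. Among those with at least 2 CD3 genes, 87.6%, 83.3%, 77.3% and 76.2% also held a UMI of MPO, the myeloperoxidase of granulocyte precursors, against 73.4%, 73.4%, 65.2% and 63.7% of the cells with none. So common a transcript may also be free RNA in the droplets, which was not tested. CD7, an early lymphoid surface gene, was seen in 38.0%, 24.0%, 37.5% and 46.1% of cells with at least 2 CD3 genes and in 30.4%, 26.6%, 31.3% and 25.1% of cells with none, so the share was apart beyond counting error for 0255. These 2 sets of cells differ in depth, since a deeper cell shows more genes, and the part of depth in these shares was not tested. DNTT and RAG2, which act when receptor genes are rearranged, had no UMI in any hashtag.

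Of 31 early T cell genes, 12 were over the minimum, 4 of them were counted higher and none lower, beside the 0.627% of all genes. Their median log2 ratio was 0.23. Beside the CD3 chains the fourth was RUNX3, a transcription factor of cytotoxic T cells and of Langerhans cells, at 68.8, 70.7, 142 and 178 CPM (2.28-fold). CD7 itself was at 30.0, 25.9, 30.6 and 30.9 CPM, and TCF7, the factor that opens the T cell program, at 4.23, 4.81, 5.13 and 4.59 CPM. CD7 was apart by a narrow margin and TCF7 overlapped. Over the list, 7 of the 12 were apart on the higher side and 2 on the lower, beside 26.4% and 30.8% of all genes.

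Below the minimum level, several T cell genes pointed the same way in small counts. These were picked after their values were seen. BCL11B, which fixes T cell identity, was at 0.173, 0.104, 0.864 and 2.42 CPM, GATA3 at 1.16, 0.988, 2.82 and 2.84 CPM, and the kinase gene LCK at 1.21, 0.832, 2.82 and 3.37 CPM. KLRB1, a receptor of innate lymphocytes, was at 0.718, 0.286, 4.47 and 5.26 CPM. The pairs were apart in each of the 4 genes. PTCRA, the surrogate chain of the early T cell receptor, went the other way at 0.445, 0.728, 0.0576 and 0.210 CPM.

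Among 20 genes known as Notch targets, 8 were over the minimum, 3 were counted higher (HES4, TRIB2 and CD3D) and none lower. Of all genes, 0.627% were counted higher. CD3D was also among the early T cell genes counted above, so the 2 lists are not separate. Both of the second pair stood above both of the first in 6 of the 8, beside 26.4% of all genes. The median log2 ratio of the 8 was 0.60. HES4, a repressor of the HES family, was at 4.73, 4.21, 15.8 and 28.9 CPM (4.80-fold), and TRIB2, a pseudokinase, at 3.79, 3.46, 9.97 and 14.0 CPM (3.26-fold). A UMI of HES4 was found in 6.55%, 6.46%, 17.4% and 27.6% of cells, and after thinning in 2.13%, 1.51%, 6.09% and 11.3%. HES4 thus ran from a level first pair to 0254 and on to 0255.

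HES1, whose promoter holds the RBPJ letters as a pair, was less far apart at 20.8, 25.2, 32.5 and 36.3 CPM and was not counted. NRARP, an inhibitor that Notch induces, was at 7.35, 7.64, 9.71 and 13.5 CPM, also apart but not counted. Under the minimum, DTX1 was at 0.520, 0.884, 2.42 and 7.82 CPM and HEY2 at 0.693, 0.390, 1.58 and 1.89 CPM, while HES5, HEYL and HEY1 reached at most 0.288 CPM. None of these was named by the rule, and they were chosen with their values known. The levels of the targets spanned a wide range, and the pairs were apart in HES1, NRARP, DTX1 and HEY2 without a count.

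None of the machinery upstream passed the 1.5-fold rule. Of 28 genes of receptors, ligands, proteases and nuclear partners, 21 were over the minimum and none was counted in either direction, with a median log2 ratio of -0.08. Of all genes, 0.627% were counted higher and 1.22% lower, so none among 21 is near the share of all genes. Both of the second pair were below both of the first in 12 of the 21 and above in 2, beside 30.8% and 26.4% of all genes. RBPJ was at 103, 111, 102 and 100 CPM, and APH1A, a subunit of the protease that frees the receptor's inner part, at 96.6, 99.5, 91.2 and 94.1 CPM. NOTCH1 was at 29.9, 25.4, 25.9 and 26.8 CPM. The pairs overlapped in NOTCH1 and were apart on the lower side in RBPJ and APH1A, within 1.06-fold.

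**Figure D2:**
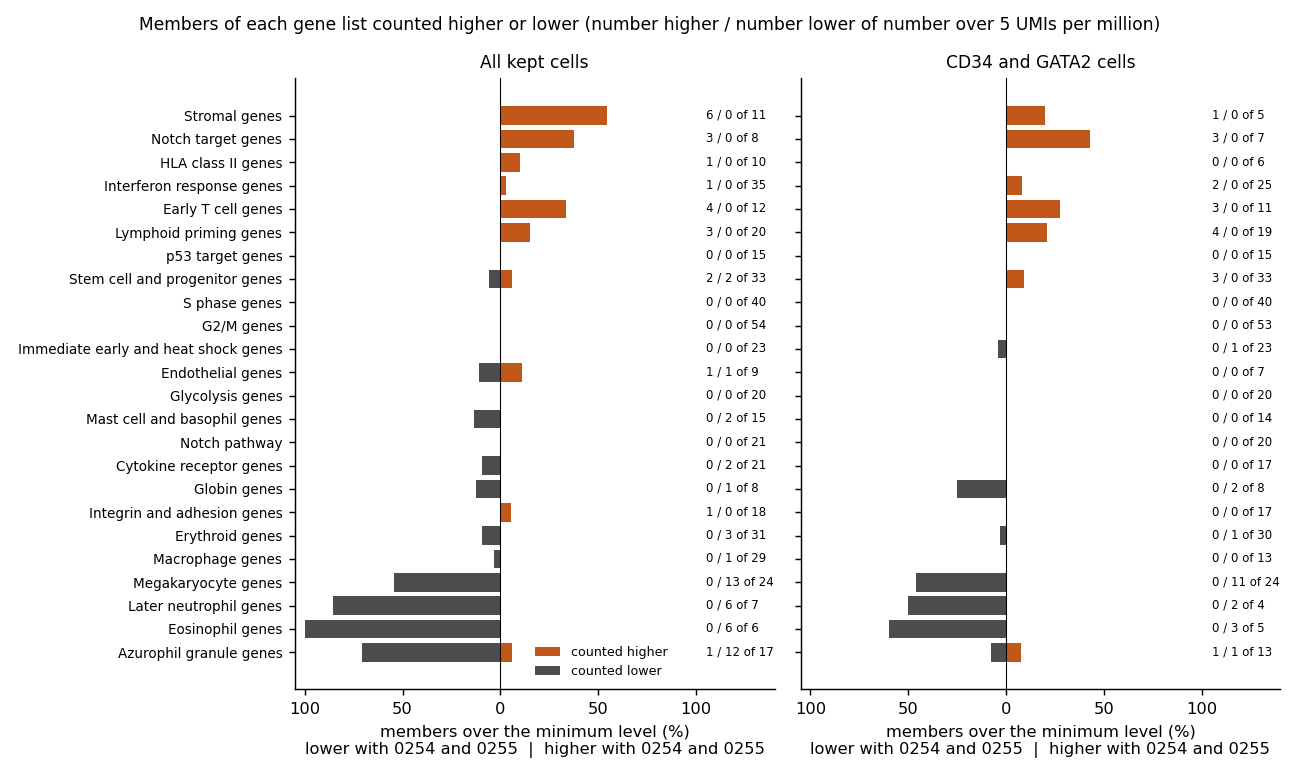
Share of each gene list counted higher (orange, to the right) or lower (grey, to the left) with hashtags 0254 and 0255, in percent of members over the minimum level; the figures at the right of each panel give higher, lower and members over the minimum. In all cells the granulocyte, eosinophil and megakaryocyte lists lie to the left and the stromal, Notch target and early T cell lists to the right; in cells with CD34 and GATA2 the azurophil list is 1 higher and 1 lower of 13, while 11 of 24 megakaryocyte genes are lower.

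Of 36 lymphoid priming genes, 20 were over the minimum, 3 were counted higher and none lower, beside 0.627% of all genes counted higher. Of the 20, 11 were apart on the higher side and 4 on the lower, beside 26.4% and 30.8% of all genes. LTB, the lymphotoxin chain that shapes lymphoid tissue, was at 73.8, 108, 244 and 346 CPM (3.26-fold). A UMI of LTB was found in 36.2%, 39.1%, 49.4% and 53.7% of all cells. The share was larger, at 54.5%, 52.4%, 75% and 80.2%, in cells with at least 10 UMIs of C1QA, C1QB and C1QC, which macrophages make. IGLL1, a part of the pre-B cell receptor that early granulocyte precursors also express, was at 62.5, 63.4, 137 and 174 CPM (2.45-fold). ID3, an inhibitor of E proteins, was at 29.7, 16.1, 56.7 and 55.9 CPM (2.57-fold), with the first pair itself apart. FLT3, the receptor of the ligand in the medium, stayed at 0.375 to 0.526 CPM.

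The remaining genes far apart on the higher side belong to no single lineage. HPGD, which breaks down prostaglandins, was at 5.74, 5.43, 22.4 and 32.4 CPM (4.83-fold). ADCYAP1, a neuropeptide gene on the stem cell list, was at 2.75, 2.52, 11.8 and 11.2 CPM (4.37-fold). The second pair was level in ADCYAP1 and not in HPGD. HOXB-AS3 and its neighbour HOXB3, genes of the homeobox B cluster, were at 5.47, 5.38, 14.1 and 21.9 CPM (3.24-fold) and at 5.91, 6.66, 11.4 and 12.1 CPM (1.87-fold). Counting is reported to have used default parameters, and whether these use strand was not checked here. Reads of this antisense RNA and of genes it overlaps may therefore not be told apart. GSTP1, a detoxifying enzyme and by far the most abundant gene in this direction (named for its level, after its values were seen), was at 1521, 1560, 2854 and 3971 CPM.

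Stromal genes were counted higher for 6 of 11 members over the minimum (of 21), beside 0.627% of all genes. The median log2 ratio of the 11 was 1.31. COL1A1, a fibrillar collagen, was at 10.3, 9.13, 19.1 and 45.5 CPM (3.04-fold), TAGLN and ACTA2, of the contractile skeleton, at 20.5, 18.5, 37.1 and 84.8 CPM and at 11.3, 8.14, 18.4 and 48.0 CPM, and ACTC1, a cardiac actin, at 14.2, 5.33, 34.8 and 62.8 CPM (5.38-fold). FN1, fibronectin, was at 10.7, 11.3, 19.1 and 29.1 CPM. Hashtag 0255 was the highest in each of these genes. Cells with at least 10 UMIs of COL1A1, COL1A2 and COL3A1 numbered 11, 12, 16 and 52 (0.515%, 0.601%, 0.866% and 3.31%), and these few cells held 88.6% of the COL1A1, 89.3% of the TAGLN and 89.9% of the ACTC1 UMIs.

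Without those cells, an alternative added after the data were seen, 1 of the stromal genes was counted, PDGFRB, the receptor of platelet-derived growth factor. TAGLN was then at 3.23, 3.50, 4.25 and 5.35 CPM and ACTC1 at 2.26, 2.12, 2.39 and 4.56 CPM. PDGFRB was at 5.77, 6.43, 14.1 and 16.4 CPM, with 93.4% of its UMIs outside the collagen cells. HES4 was at 4.35, 4.10, 13.5 and 25.8 CPM outside them, and at 70.5, 23.4, 241 and 163 CPM within. Without the collagen cells the other stromal genes were not counted, while the gaps of PDGFRB and HES4 stayed about as wide. IGF2, a growth factor gene, was at 2.97, 4.81, 15.0 and 13.3 CPM in all cells and at 2.11, 3.69, 10.9 and 4.49 CPM outside the collagen cells.

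On the lower side the granule genes of the neutrophil line led. Of 19 azurophil granule genes, 17 were over the minimum, 12 were counted lower (beside 1.22% of all genes) and 1, IGLL1, higher, with a median log2 ratio of -1.72. ELANE, PRTN3 and AZU1, serine protease genes that neighbour each other on chromosome 19 (825097 to 856247 from AZU1 to ELANE), were at 33.8, 25.1, 4.29 and 5.40 CPM (6.06-fold), at 1467, 1665, 425 and 401 CPM (3.79-fold) and at 167, 151, 38.3 and 37.3 CPM (4.21-fold). MPO was at 1676, 1632, 513 and 456 CPM. In these genes the second pair was level and far under the first. The defensin genes DEFA4, at 23.1, 32.8, 4.87 and 4.80 CPM (5.69-fold), and DEFA3, at 13.8, 19.4, 0.864 and 0.982 CPM (17.7-fold), were lower still, though DEFA3 has a near-identical copy, DEFA1, and the reads may be split between them. RNASE3, a granule ribonuclease that eosinophils share, was at 17.8, 17.7, 4.87 and 4.24 CPM.

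Later neutrophil genes were counted lower for 6 of 7 members over the minimum, of 21, beside 1.22% of all genes. S100A8 and S100A9, the chains of calprotectin, were at 91.9, 84.1, 23.8 and 5.57 CPM (7.64-fold) and at 249, 323, 88.3 and 54.9 CPM (4.07-fold). CEBPE, the factor of the late granulocyte program, was at 24.9, 30.5, 9.91 and 6.49 CPM (3.44-fold), and CSF3R, the receptor of G-CSF, at 44.4, 41.4, 23.5 and 19.0 CPM (2.03-fold). PADI4, which alters histones in neutrophils, was at 9.60, 10.3, 5.01 and 2.38 CPM, and CHI3L1, a secreted lectin, at 13.0, 27.8, 7.64 and 8.48 CPM. All but CHI3L1 were lowest with 0255. CST7, an inhibitor of granule proteases, was at 24.9, 22.5, 6.25 and 3.05 CPM (5.41-fold), and SLPI, which inhibits elastase, at 16.0, 13.0, 3.72 and 3.54 CPM.

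All 6 eosinophil genes over the minimum, of 12, were counted lower, beside 1.22% of all genes. EPX, the eosinophil peroxidase, was at 106, 103, 52.6 and 39.5 CPM (2.29-fold), CLC, the protein of Charcot-Leyden crystals, at 169, 244, 90.4 and 91.7 CPM, and RNASE2, the eosinophil neurotoxin, at 156, 155, 57.5 and 45.2 CPM (3.06-fold). The granule proteins PRG2 and PRG3 were at 32.8, 36.8, 17.4 and 8.48 CPM and at 77.7, 113, 50.9 and 14.5 CPM. The spread within the second pair was wide in PRG3 and narrow in CLC.

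Of 34 megakaryocyte genes, 24 were over the minimum, of which 13 were counted lower and none higher (median log2 ratio -0.91). Of all genes, 1.22% were counted lower. Of the 24, 20 were apart on the lower side and 1 on the higher, beside 30.8% and 26.4% of all genes. PPBP was at 84.3, 83.7, 13.3 and 18.9 CPM (5.31-fold). ITGB3, a chain of the platelet fibrinogen receptor, was at 8.56, 9.05, 2.51 and 2.10 CPM (3.83-fold), TUBB1, the platelet tubulin, at 13.7, 14.0, 4.84 and 2.91 CPM, and GP1BA, of the receptor for von Willebrand factor, at 11.1, 12.2, 3.83 and 4.42 CPM. The first pair was level and the second low in each. THBS1, the secreted thrombospondin, was at 47.7, 52.8, 18.5 and 15.2 CPM, MYLK, the kinase of myosin light chains, at 20.6, 17.3, 5.56 and 6.87 CPM, and the complement receptor-like gene CR1L, on no list, at 14.1, 13.9, 3.95 and 3.58 CPM (3.72-fold).

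Fewer of the red cell genes were counted. Of 43 erythroid genes, 31 were over the minimum, of which 18 were apart on the lower side and 5 on the higher, beside 30.8% and 26.4% of all genes. Of the 31, 3 were counted lower, beside 1.22% of all genes: HEMGN, a nuclear factor shared with megakaryocytes, at 13.5, 11.2, 3.63 and 2.31 CPM, CA2, a carbonic anhydrase, at 8.29, 9.33, 4.24 and 4.42 CPM, and LMO2, a partner of TAL1 and GATA1, at 36.4, 40.8, 23.6 and 20.6 CPM. Without 0254, which leaves 0255 alone on its side, 10 were counted lower, and without 0253, 5. Of 8 globin genes, HBD was counted lower at 198, 228, 118 and 82.8 CPM, while HBG2 was at 295, 414, 531 and 199 CPM and HBG1 at 147, 217, 254 and 125 CPM. HBG1 and HBG2 are near-identical copies and their split is uncertain. Their levels were highest with 0254 and lowest or nearly so with 0255, so the pairs overlapped.

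The shares of cells moved with these genes. Cells were called by at least 10 UMIs of a marker set. The azurophil set (MPO, ELANE, PRTN3 and AZU1) took in 29.7%, 33.8%, 12.8% and 12.3% of cells, with intervals from 27.8% to 35.9% over the first pair and 10.7% to 14.4% over the second. The calprotectin set (S100A8 and S100A9) took in 13.2%, 16.2%, 3.84% and 2.29%, the eosinophil set (EPX, PRG2 and CLC) 5.24%, 5.46%, 2.38% and 1.66%, and the platelet set (PF4, PPBP and GP9) 2.90%, 3.51%, 0.920% and 0.764%. The intervals of the pairs were apart in all 4 sets. The marker sets share cells, so these are not 4 separate falls. In 2 or more of the 8 sets were 19.1%, 22.6%, 6.88% and 5.28% of cells. The azurophil and calprotectin sets, and no other, held 577 cells in common, of 711 calprotectin cells. The platelet and globin sets, and no other, held 119, of 161 platelet cells. Cells with at least 10 globin UMIs made up 5.38%, 6.16%, 3.84% and 2.55%, cells with the complement genes C1QA, C1QB and C1QC, which macrophages make, 8.94%, 8.52%, 9.10% and 7.38%, and mast cell genes 1.97%, 1.95%, 2.11% and 0.827%. Those 3 sets overlapped or touched between the pairs. With cells thinned to 5000 UMIs the azurophil shares were 22.2%, 23.1%, 7.02% and 5.62%. Cells in none of the 8 sets were 52.5%, 48.4%, 71.4% and 74.7% of their hashtag.

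**Figure D3:**
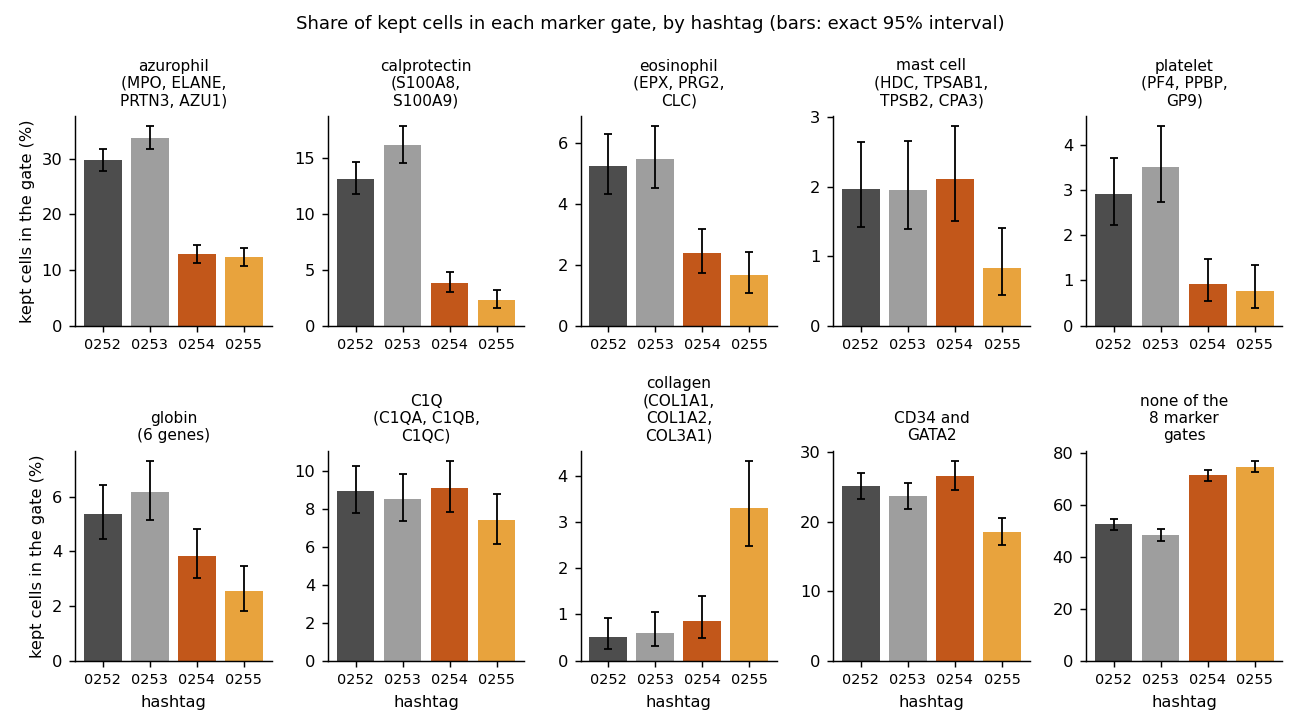
Percent of kept cells of each hashtag with at least 10 UMIs of each marker set, with at least 2 UMIs of CD34 and of GATA2, or in no marker set; bars start at 0, and error bars are exact 95% binomial intervals. The azurophil, calprotectin, eosinophil and platelet bars of 0252 and 0253 stand above those of 0254 and 0255, the collagen bar is highest for 0255 (3.31%), and the C1Q bars are level within their intervals.

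Levels were also taken within the marker sets. Inside the azurophil cells, which held 95% of its UMIs, MPO was at 5330, 4522, 2980 and 2736 CPM, and PRTN3 at 4748, 4683, 2641 and 2633 CPM. Both were lower within these cells too, which were also fewer, although the cells were chosen by these genes. In cells of no marker set MPO was at 81.7, 70.7, 78.0 and 80.4 CPM, but those cells were chosen for low counts of the marker genes. THBS1, which chose no cells, was at 728, 783, 657 and 827 CPM within the 62, 70, 17 and 12 platelet cells, where the pairs overlapped.

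In cells of no marker set, chosen for low counts of the marker genes, 9 megakaryocyte genes were counted lower. Cells with fewer than 10 platelet UMIs could remain in this set. At a minimum of 5 UMIs the platelet set took in 5.71%, 5.46%, 1.57% and 1.02% of all cells. The part of such cells in these levels was not tested. ITGB3 was at 5.02, 3.48, 0.783 and 0.613 CPM there, and THBS1 at 21.8, 16.4, 8.11 and 4.01 CPM. CR1L, on no list, was at 11.2, 9.84, 1.77 and 1.70 CPM in the same cells. FLI1, the factor that commits progenitors to megakaryocytes, was at 33.8, 30.5, 19.2 and 17.3 CPM there and at 38.0, 34.4, 20.9 and 18.7 CPM in all cells. PLEK, a platelet signalling protein, was at 123, 118, 63.5 and 57.6 CPM there, but at 1446, 1359, 1270 and 1772 CPM in platelet cells. With the shares of 8 cell classes set equal in every hashtag, 38 of the 119 lower genes (31.9%) and 43 of the 61 higher genes (70.5%) were still counted. Under that setting 2 azurophil, 1 later neutrophil and 1 eosinophil gene were counted lower, as were 6 megakaryocyte genes. Counted higher were 3 Notch targets and 4 early T cell genes, 2 lists that share CD3D. Members of the granulocyte, eosinophil and megakaryocyte lists cut these classes, so a fall in their counts was partly built in. No CD3 or HES gene cut a class. Cells of rarer patterns, 565 in number, formed 1 class whose make-up was not set equal.

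**Figure D4:**
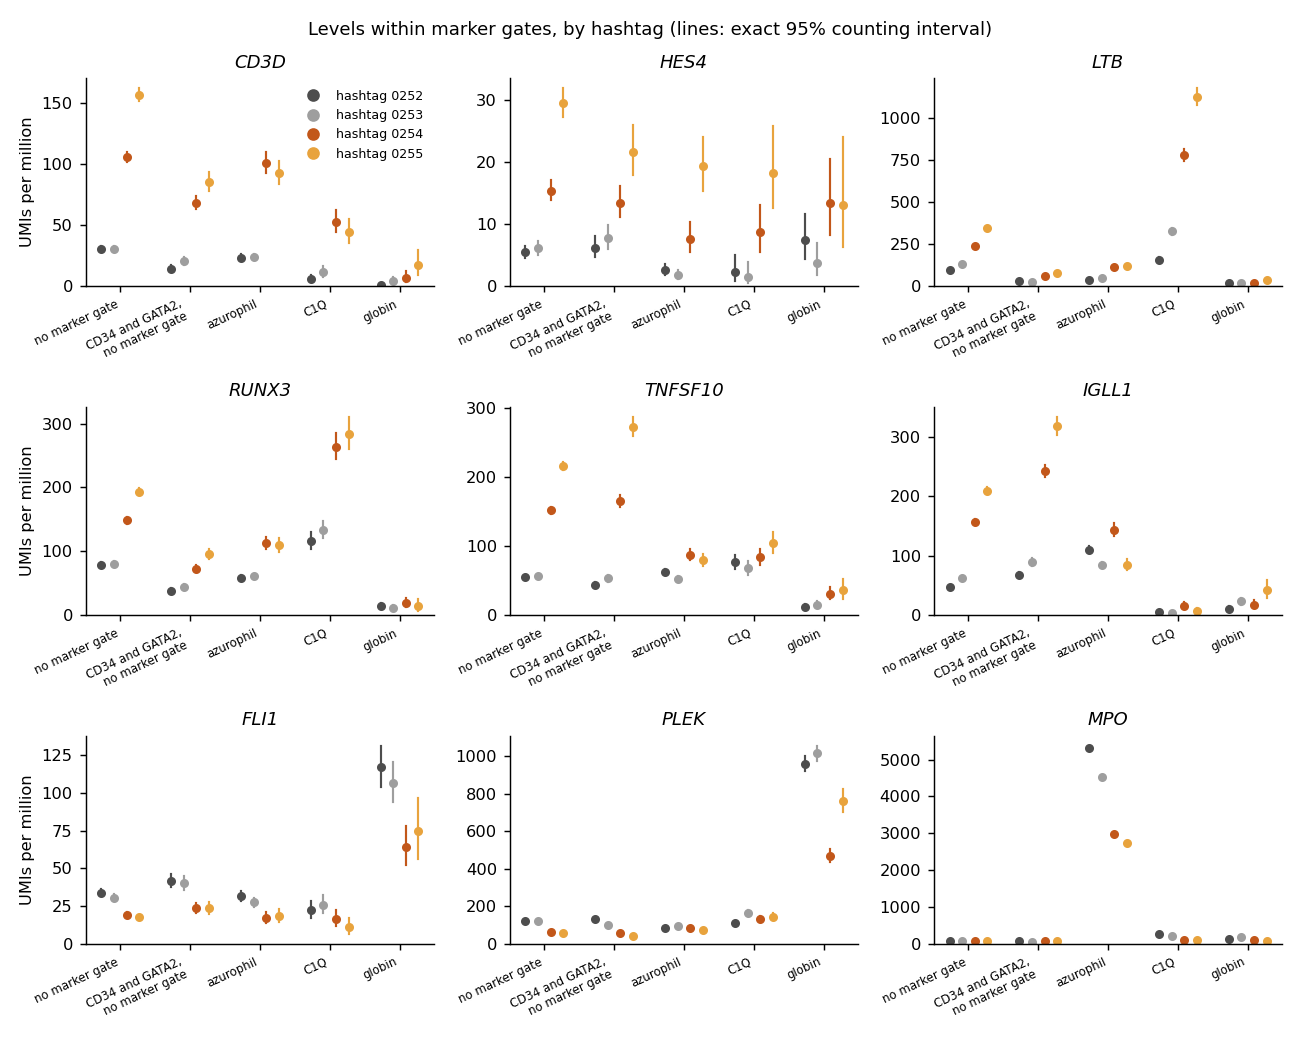
Levels of 9 genes inside marker sets of cells, by hashtag; points are CPM, lines exact 95% counting intervals, and each panel has its own axis from 0. CD3D, HES4 and RUNX3 are higher with 0254 and 0255 in the first 4 sets of cells; MPO lies near the floor outside the azurophil cells, where it runs from 5330 to 2736 CPM; and FLI1 is lower in all 5 sets.

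The higher genes were spread over cell types. CD3D in cells of no marker set, which held 78.0% of its UMIs, was at 30.0, 29.8, 106 and 156 CPM, and in azurophil cells at 22.9, 23.6, 101 and 92.2 CPM. HES4 was at 5.44, 6.04, 15.4 and 29.6 CPM in cells of no marker set, at 2.52, 1.70, 7.64 and 19.3 CPM in azurophil cells and at 2.27, 1.47, 8.68 and 18.3 CPM in C1Q cells. RUNX3 was at 57.6, 60.3, 112 and 109 CPM in azurophil cells and at 116, 133, 264 and 284 CPM in C1Q cells. In these 3 genes both of the second pair were above both of the first in each of the cell sets named. GSTP1 and IGLL1 were not alike in every set. GSTP1 was at 1766, 1836, 3360 and 4720 CPM in cells of no marker set but at 1163, 1121, 1232 and 1117 CPM in C1Q cells, and IGLL1 was at 47.2, 62.0, 157 and 210 CPM in the former but at 110, 83.3, 144 and 84.8 CPM in azurophil cells.

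In the cells with CD34 and GATA2, 43 of 9502 genes (0.453%) were counted higher and 62 (0.652%) lower, with counting intervals apart for 37 and 54 of them. At 2-fold, 14 were higher and 19 lower. Both of the second pair stood above both of the first for 28.5% of genes and below for 18.8%. Within the pairs, 0.852% of genes differed by over 1.5-fold between 0252 and 0253 and 1.68% between 0254 and 0255. The latter share was larger than that counted in either direction. The rules are unlike, since it asks for 1 ratio past the fold, either way. A counted gene needs both hashtags of a pair past both of the other. BST2 (1.503) and OCIAD2 (1.495) lay on the 2 sides of the edge on the higher side, and TRIB1 (1.509) and CSF1R (1.496) on the lower. CD34 and GATA2 chose these cells and are not named in them. They were not taken out of the numbers of genes, or of any list that holds them.

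These cells are among the cells already described, so their genes are not an independent count. Of the 61 higher genes, 36 were over the minimum here and 20 were counted here too (32.8% of the list from all cells, 46.5% of the list from these cells). Of the 119 lower genes, 82 were over the minimum and 45 were counted here too (37.8% and 72.6%). None was counted the opposite way.

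**Figure D5:**
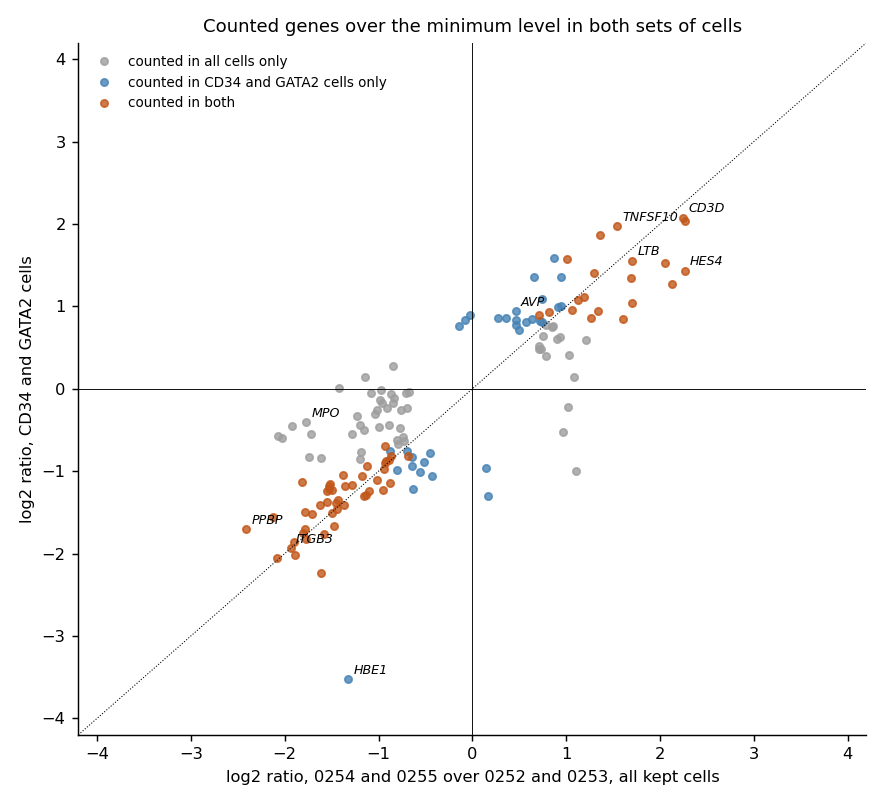
Log2 ratio of hashtags 0254 and 0255 over 0252 and 0253 in all kept cells (horizontal) and in the cells with CD34 and GATA2 (vertical), for genes counted in either and over the minimum in both; the dotted line marks equal ratios, and the cells of the vertical axis are a part of those of the horizontal one. Genes counted in both (orange) lie in the upper right or lower left; MPO, counted in all cells only, lies at -1.77 on the horizontal and -0.41 on the vertical axis.

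Among the progenitor cells the higher genes again held CD3 chains and lymphoid genes. CD3D was at 15.6, 22.0, 70.2 and 87.3 CPM (4.21-fold), CD3E at 4.14, 3.15, 10.6 and 10.2 CPM (2.88-fold) and LTB at 28.3, 24.8, 71.8 and 84.3 CPM (2.94-fold). IGLL1 was at 100, 106, 235 and 315 CPM (2.64-fold). ID3 was at 6.09, 4.01, 16.0 and 20.1 CPM. At least 2 CD3 genes were seen in 4.66%, 4.24%, 15.2% and 15.4% of these cells. The pairs were apart in all of them, and the second pair was close to level in CD3E. Of the lists, 3 of 11 early T cell genes, 4 of 19 lymphoid priming genes and 3 of 7 Notch targets over the minimum were counted higher and none lower. Of all genes in these cells, 0.453% were counted higher and 0.652% lower. Apart on the higher side were 6, 12 and 5 genes of these lists, beside 28.5% of all genes. On the lower side 3, 3 and 0 were apart, beside 18.8%. CD3D stands on both the early T cell and the Notch target list. HES4 was at 5.67, 6.49, 13.3 and 20.1 CPM and TRIB2 at 5.24, 5.34, 9.01 and 13.2 CPM. HES1 overlapped at 34.7, 47.0, 40.7 and 56.4 CPM, and none of 20 genes of the Notch machinery was counted.

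TNFSF10, the death ligand TRAIL, was counted higher at 47.9, 53.8, 156 and 256 CPM (3.93-fold). C1QTNF4, a secreted relative of C1q, was at 55.8, 59.8, 139 and 157 CPM (2.56-fold), HPGD at 9.05, 7.35, 29.1 and 38.5 CPM (4.10-fold) and PAQR5, a membrane progestin receptor, at 2.54, 2.10, 6.45 and 13.6 CPM. In all cells TNFSF10 was also counted, at 55.2, 51.7, 130 and 185 CPM, and C1QTNF4 was not, at 87.1, 80.1, 126 and 137 CPM. In C1Q cells TNFSF10 was at 75.8, 67.4, 83.7 and 104 CPM. Its gap was wide in the cells with CD34 and GATA2 and under 1.5-fold at the nearest hashtags in the C1Q cells.

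Of 33 stem cell and progenitor genes over the minimum in these cells, of 44, 3 were counted higher and none lower, with a median log2 ratio of 0.02 beside 0.03 for all genes. Of all genes in these cells, 0.453% were counted higher. Of the 33, 13 were apart on the higher side and 11 on the lower, beside 28.5% and 18.8% of all genes. The 33, the median and the numbers apart may include CD34 and GATA2, which chose the cells. AVP, a neuropeptide gene that marks human stem cells, was at 27.9, 33.2, 56.0 and 60.7 CPM (1.92-fold), SPINK2, a protease inhibitor of early progenitors, at 30.1, 25.5, 48.8 and 48.8 CPM (1.76-fold) and ADCYAP1 at 6.01, 5.44, 11.1 and 17.2 CPM (2.42-fold). With cells thinned to 5000 UMIs 1 of the list was counted higher, and at 2-fold none. MECOM, a factor that stem cells need, was at 22.3, 24.1, 25.3 and 24.7 CPM and HLF, another, at 1.35, 0.954, 1.99 and 2.08 CPM. The list as a whole was centred like all other genes. In all cells 2 of its 33 members were counted higher, ADCYAP1 and HOXB3, and 2 lower, LMO2 and ITGA6, a laminin-binding integrin at 11.4, 10.3, 6.31 and 6.49 CPM. Of 25 interferon response genes, 2 were counted higher in the progenitor cells, IFI16, a DNA sensor, at 38.1, 36.4, 61.1 and 74.1 CPM, and BST2, which tethers viruses, at 54.7, 71.0, 107 and 112 CPM. Of the 25, 12 were apart on the higher side and 2 on the lower.

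On the lower side, 11 of 24 megakaryocyte genes over the minimum were counted and 23 were apart, with a median log2 ratio of -0.77. Of all genes in these cells, 0.652% were counted lower and 18.8% were apart on that side. MYLK was at 22.9, 19.6, 6.35 and 3.19 CPM (4.70-fold), ITGB3 at 8.80, 9.06, 2.84 and 1.92 CPM (3.83-fold), THBS1 at 43.2, 43.0, 17.4 and 9.26 CPM (3.39-fold) and PPBP at 27.4, 14.2, 5.88 and 6.23 CPM (3.26-fold). MMRN1, a platelet granule protein, was at 29.9, 23.6, 9.39 and 9.26 CPM, F2RL2, a thrombin receptor, at 27.6, 17.5, 7.58 and 5.59 CPM and LTBP1, which stores TGF-beta, at 32.8, 28.2, 11.6 and 7.98 CPM. The highest of the second pair was in each case well under the lowest of the first. FLI1 was at 45.6, 41.8, 25.7 and 24.1 CPM, while ITGA2B, the other chain of the fibrinogen receptor, was at 155, 142, 122 and 85.4 CPM and not counted. Platelet cells were 2.05%, 1.48%, 1.22% and 0.342% of these cells, on 11, 7, 6 and 1 cells. With the cells of every marker set left out, 8 megakaryocyte genes were counted lower.

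The granulocyte lists were less far apart in the progenitor cells, most so the azurophil list. Its median log2 ratio was -0.45, against -1.72 in all cells. The median was -0.89 (-1.53 in all cells) for later neutrophil genes and -1.16 (-1.56) for eosinophil genes. Apart on the lower side were 8 of 13, 4 of 4 and 5 of 5 genes of these lists, beside 18.8% of all genes, and 3 azurophil genes were apart on the higher side. The counts below stand beside 0.453% of all genes in these cells counted higher and 0.652% counted lower. Of 13 azurophil genes over the minimum, 1, IGLL1, was counted higher and 1, MS4A3, a membrane protein of granulocyte precursors, lower at 57.0, 45.9, 24.7 and 21.9 CPM. MPO was at 264, 204, 161 and 191 CPM and PRTN3 at 170, 147, 139 and 96.9 CPM, apart but not counted. Of the later neutrophil genes, 2 of 4 were counted lower: CEBPE at 16.6, 29.0, 10.4 and 5.75 CPM and PADI4 at 8.97, 10.2, 4.84 and 3.67 CPM. Of the eosinophil genes, 3 of 5 were, among them CLC at 159, 141, 84.6 and 43.3 CPM and PRG3 at 46.2, 72.8, 16.5 and 19.2 CPM. Under stricter hashtag calls, and likewise in cells of no marker set, 1 eosinophil gene was counted. Eosinophil cells were 6.52%, 6.78%, 2.85% and 2.74% of these cells and azurophil cells 9.87%, 10.2%, 5.08% and 5.14%. Both shares were lower in the second pair, with counting intervals that overlapped between the pairs. HBE1, the embryonic globin, was counted lower at 76.0, 29.4, 13.2 and 1.28 CPM (11.5-fold between the pairs), with the first pair itself wide, and in all cells it overlapped at 78.8, 49.1, 58.3 and 10.5 CPM. JUN, an immediate early factor, was at 9.39, 9.25, 4.36 and 4.95 CPM.

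Cells with C1Q genes were compared apart as an alternative added after the data were seen, with 191, 170, 168 and 116 cells and a minimum of 20 CPM. Of 5447 genes, 23 (0.422%) were counted higher and 58 (1.06%) lower, and counting intervals were apart for 21 and 48. The share of genes that differ within a pair was not taken for these cells. Their median UMIs were 11798, 14578.5, 13515 and 14297. Their median mitochondrial shares were 12.66%, 13.21%, 14.63% and 14.15%. The part of depth and of this share in the counts was not tested. The genes named here were chosen after their values were seen. Among the higher genes were CD207, the Langerhans cell lectin, at 2.65, 4.79, 63.6 and 21.2 CPM, IDO1, which degrades tryptophan, at 9.48, 16.2, 39.1 and 65.2 CPM, S100B at 1005, 947, 1534 and 1853 CPM and LTB at 155, 324, 778 and 1124 CPM. HLA-DQA1, of the antigen-presenting class II molecules, was at 92.5, 67.4, 144 and 152 CPM, and its reads may be split with similar HLA genes. The higher genes also held KRT8 and KRT18, of the epithelial skeleton, ITGB7, the chemokine receptor CXCR3 and the stress factor ATF3. CD207 was highest with 0254, and IDO1, S100B and LTB with 0255.

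Among the lower genes of the C1Q cells, S100A8, VCAN, a proteoglycan, and the chemokine CCL2 were at 109, 238, 19.3 and 19.5 CPM, at 78.1, 88.4, 24.9 and 28.0 CPM and at 44.7, 60.4, 8.68 and 9.73 CPM. F13A1, a clotting factor of macrophages, was at 42.8, 37.2, 10.3 and 1.72 CPM, STAB1, a scavenger receptor, at 50.8, 36.8, 9.08 and 15.4 CPM and SPP1, osteopontin, at 1997, 3443, 1287 and 921 CPM. The second pair was far under the first in each but SPP1, whose nearest levels, 1997 and 1287 CPM, were closer. CD68, a lysosomal protein of all macrophages, was at 151, 148, 81.7 and 89.8 CPM, and the lysozyme gene LYZ at 277, 573, 92.4 and 162 CPM. MPO was lower in these cells too, at 256, 193, 88.8 and 101 CPM, as were the granulocyte genes RNASE2, RETN and CSF3R. MPO moved with the azurophil shares of the whole pools and S100A8 with the calprotectin shares, and the part of free RNA or of doublets in these genes was not tested. CD3D was at 5.31, 11.1, 52.5 and 44.1 CPM, and a UMI of it was found in 4.71%, 5.88%, 19.6% and 20.7% of C1Q cells, or 1.05%, 2.37%, 11.4% and 12.9% after thinning.

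Across all cells 1 of 29 macrophage genes was counted lower, STAB1 at 10.5, 7.33, 4.78 and 4.84 CPM, and none higher, with a median log2 ratio of -0.25. Of the 29, 16 were apart on the lower side and 1 on the higher, beside 30.8% and 26.4% of all genes. Of 10 class II genes, HLA-DQA1 was counted higher at 8.04, 7.49, 14.4 and 15.4 CPM. On the higher side 8 of the 10 were apart, beside 26.4% of all genes. In the progenitor cells 4 of 6 class II genes were apart on the lower side, beside 18.8% of all genes, with none counted. For the remaining lists in all cells, the counts stand beside 0.627% of all genes counted higher and 1.22% counted lower. Of 15 mast cell and basophil genes, 2 were counted lower. These were SRGN, the proteoglycan of granules, at 497, 561, 242 and 231 CPM, and CEBPA, a myeloid factor, at 45.2, 45.7, 21.8 and 18.02 CPM. Of the 15, 6 were apart on the higher side and 6 on the lower, with a median log2 ratio of -0.07. Of 21 cytokine receptor genes, CSF3R and IL6R were counted lower, the latter at 39.2, 40.2, 24.4 and 22.0 CPM. Of the 21, 11 were apart on the lower side and 4 on the higher. Among adhesion genes ITGB7, a chain of gut-homing integrins, was the only one of 18 counted, at 9.18, 11.3, 20.2 and 28.4 CPM. Of the 18, 5 were apart on the higher side and 7 on the lower. PSMB9, of the immunoproteasome, was the only one counted of 35 interferon genes, at 7.03, 9.85, 16.8 and 27.5 CPM. Of the 35, 19 were apart on the higher side and 3 on the lower, beside 26.4% and 30.8% of all genes. Of 9 endothelial genes PLVAP was counted higher at 26.4, 25.9, 40.1 and 48.4 CPM and NRP1 lower at 8.49, 9.59, 4.98 and 4.28 CPM. Of the 9, 2 were apart on the higher side and 4 on the lower.

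None of 40 S phase genes, 54 G2/M genes, 20 glycolysis genes, 15 p53 targets or 23 immediate early and heat shock genes was counted in all cells. Of all genes, 0.627% were counted higher and 1.22% lower. GAPDH, of glycolysis, was at 4025, 4142, 4157 and 4138 CPM, TYMS, which makes thymidine for DNA synthesis, at 241, 254, 253 and 266 CPM and BAX, a p53 target, at 231, 233, 235 and 236 CPM. The pairs were within 1.05-fold in these genes. Genes of the cell cycle outside these lists, named after their values were seen, were counted lower: CDKN2D, which inhibits the kinases of early cycle, at 25.4, 30.1, 15.6 and 14.6 CPM in all cells and at 30.2, 37.8, 16.9 and 13.9 CPM in the cells with CD34 and GATA2, and CCND1, cyclin D1, at 16.3, 15.7, 9.20 and 7.34 CPM in the latter only.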

How the data were processed

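Nonadherent cells from 4 pools, each stained with its own hashtag, were sequenced as 1 library of RNA and 1 of hashtags. Per the labels and the file headers, the authors made the deposited counts, UMIs per gene and barcode, with Cell Ranger 6.0.1 and hg19 and left them unnormalized. Replicate wells were pooled before staining, and hashtag calls were the authors' own. Counting is reported to have used default parameters. What these do with introns or with reads of near-identical copies was not checked here, so levels of such copies are uncertain.

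UMIs were summed per hashtag over kept cells and scaled to UMIs per 1000000 (CPM). With 1 pool per hashtag no count model or test was run. Genes were counted by the fixed fold of 1.5 between the nearest hashtags, at a mean of at least 5 CPM, and lists by their counts beside those of all genes. Marker gates needed 10 UMIs, and no cluster was named. Doublets were scored with Scrublet in scanpy 1.11.5, which called 4.50% of barcodes and 1.28% of kept cells. They were kept, and left out as an alternative. Intervals were exact (Poisson or Clopper-Pearson), computed with scipy 1.17.1 in Python 3.11.15. The counting was tested on simulated data.

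The members and the 24 gene lists were chosen with earlier results of these data known. Genes named were, per comparison and direction, the 10 with the largest ratio between nearest hashtags, plus up to 6 counted members per list, or the 2 most abundant where fewer than 2 were counted. Genes under the minimum, in the C1Q cells, or otherwise outside that rule, such as MPO, GSTP1, FLI1, PLEK, SPN, NOTCH1, NRARP, MECOM and ITGA2B, were named after their values were seen. Some items that the rule names are not reported here.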

Additional observations from a re-analysis of the deposited data

How the results depend on the processing

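No paired analysis was possible because each hashtag was 1 pool, and no numbers link the pools. The counts of genes, 61 higher and 119 lower in all cells and 43 and 62 in cells with CD34 and GATA2, followed the thresholds. With a 1.3-fold rule they were 144 and 236, and 115 and 132. With a 2-fold rule they were 22 and 50, and 14 and 19. With a minimum of 1 CPM they were 172 and 242, and 119 and 141, and with 20 CPM they were 18 and 48, and 17 and 27. A mitochondrial limit of 10% left 736 cells, 55 of them with CD34 and GATA2, and gave 202 and 361, and 385 and 269. Thinning to 5000 UMIs gave 75 higher genes in cells with CD34 and GATA2. Leaving out 1 hashtag at a time gave 65 to 123 higher and 142 to 228 lower genes in all cells, and 55 to 114 and 69 to 212 in cells with CD34 and GATA2. The highest lower counts came without 0254, which leaves 0255 alone on its side. Median-of-ratios scaling gave 61 and 119, with the same genes, and 42 and 67.

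With class shares set equal, in classes cut by the marker genes themselves, 41 genes were lower. In cells of no marker gate 68 were lower, of which 41 were also lower in all cells. In C1Q cells, added after the data were seen, 23 were higher and 58 lower. In cells of no marker gate, which were chosen for few UMIs of these markers, the log2 ratio changed sign for 4 of the 61 higher and 16 of the 119 lower genes. Among the genes named by the rule these were DEFA4 (0.57), ELANE (0.46), S100A8 (0.22), S100A9 (0.14), EPX (1.69), SRGN (0.13) and FN1 (-0.11). In C1Q cells the ratio changed sign for 7 of the 61 and 17 of the 119 genes, among them the named genes CA2 (1.14), EPX (0.97), PRG2 (0.69) and ITGA6 (0.60). Under the 10% mitochondrial limit it changed sign for 2 of the 61 and 2 of the 119 genes in all cells. In the 55 cells with CD34 and GATA2 it did so for 6 of the 43 higher and 7 of the 62 lower genes. Among the latter cells' named genes these were CD3E (-0.18), TRIB2 (-0.18), IFI16 (-0.13), ITGB3 (1.19), HEMGN (1.40) and PRG2 (1.56). The causes were not tested.

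The share of cells in a gate, as the ratio of the second pair to the first, was 0.377 for eosinophil cells and 0.640 with a minimum of 5 UMIs, and 3.74 against 2.42 for collagen cells. After thinning it was 0.123 for calprotectin cells (0.209 unthinned) and 0.445 for mast cells (0.750). Under the 10% mitochondrial limit it was 0.429 for C1Q, 0.212 for eosinophil, 0.419 for platelet, 0.833 for globin and 1.83 for CD34 and GATA2 cells, against 0.944, 0.377, 0.263, 0.553 and 0.927. Doublet removal kept all 61 higher and 118 of the 119 lower genes, and stricter hashtag calls kept 58 and 113. Thinning kept 48 of the 61 and 110 of the 119, and 23 of the 43 higher and 46 of the 62 lower genes in cells with CD34 and GATA2. The 10% mitochondrial limit kept 40 and 79, and 14 and 17. With 1 pool per hashtag, a difference between pools or wells cannot be told apart from one between coatings.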
